A study of Rattus norvegicus with 22 samples.

Results

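The phase II conjugation enzymes of rat liver were followed in 22 rats: the cytosolic glutathione S-transferases (GST), the UDP-glucuronosyltransferases (UGT) and the sulfotransferases (SULT). They were taken from the array by name alone, as every gene whose array name begins with Gsta, Gstk, Gstm, Gsto, Gstp, Gstt, Gstz, Ugt1a, Ugt2a, Ugt2b or Sult and a digit. This gave 45 of the 26276 gene names on the array, with 21 GST, 11 UGT and 13 SULT genes. They were read by 54 probes, and where a gene had several, the probe with the brightest signal was used.

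Liver RNA of each rat was labelled with Cy5 and hybridised against 1 common reference, labelled with Cy3 and made of liver RNA of 10-week healthy rats outside the experiment. All animals were male Sprague-Dawley rats on semi-synthetic diets. CD 3 and CD 14 were rats on the control diet for 3 and 14 months (5 and 6 rats). BD 3 and BD 14 (5 and 6 rats) received the BASE-diet for the same times, in which salmon fat took the place of most of the lard, rapeseed oil was raised, and linden inflorescence extract, pumpkin puree and the probiotic strains LA-5 and BB-12 were added. The groups at the later time were older as well as fed for longer, so age and feeding time cannot be told apart. Sprague-Dawley is an outbred stock, so rats of 1 group need not share alleles. Rats with the same number in different groups are different animals. By the labels the rat's own RNA carries Cy5 throughout, whereas the methods put control rats in Cy3, and the labels were followed.

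Phase II enzymes attach a small polar group to drugs, plant compounds, steroids, bilirubin and bile acids, so that these can leave in bile or urine. GSTs use glutathione, and their alpha, mu, pi, theta, zeta, omega and kappa classes differ in the electrophiles they take. UGTs sit in the endoplasmic reticulum and transfer glucuronic acid from UDP-glucuronate, the UGT1A forms mostly to phenols and bilirubin and the UGT2B forms largely to steroids and bile acids. SULTs transfer sulfate from PAPS, the SULT1 forms to phenols and thyroid hormones and the SULT2 forms to hydroxysteroids and bile acids. An inherited lack of the androsterone-conjugating enzyme UGT2B2 through a gene deletion is known in some laboratory rats. Genotypes were not measured here.

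The probes that read the genes on which the results turn are shown by their first 30 bases, 5′ to 3′, as the array gives them, so that a reader can see which stretch of which gene was measured. Each probe is 60 bases long. Positions are those of the array annotation on the rat build rn4. The array's Ugt2b carries Ugt2b2 as a synonym in RefSeq, and it was read by a pair of probes that do not overlap, the brighter one first.
Ugt2b, chr14:22177431-22177490: cagctcttactgtaaaatgtctcttgttca
Ugt2b, chr14:22178136-22178195: gagcaagaagtagggctaagctatgaactt
Ugt2a3, chr14:22116723-22116782: ctctgacattcgtcatcactaaatgttctc
Ugt2b1, chr14:22650838-22650897: acaataactgaagctactgtagttcataaa
Ugt1a6, used probe, chr9:87098271-87098330: actgaagtacattctaaagaaagtatgtct
Ugt1a6, second probe, chr9:87097621-87097680: tgttgacggtggtcttcattgtctataaaa
Gsta3, chr9:20051658-20051717: agccttcgaaagctttgcaacaatcgcata
Gsta5, chr9:20026897-20029435: gagtcttgccaagatcaaggacaaagcaag
The Ugt2b, Ugt2a3 and Ugt2b1 probes all lie on chromosome 14, those of Ugt2a3 and Ugt2b nearer to each other than to that of Ugt2b1. The stretch annotated for the Gsta5 probe is longer than the probe itself. Between probes of different members, the best ungapped alignment matched 36 bases, between Gstm4 and Gstm3, so no member's probe was a near copy of another member's. Alignment to other transcripts of the genome was not examined here. The pair of Gstm3 probes matched in 58 of 60 bases and those of Sult1b1 shared 50 bases, so these second probes are not independent readings.

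Several array names have changed. By their RefSeq accession, which matched for 42 of 45 members, the array's Gsta3 is now Gsta1 (subunit Yc1), Gsta5 is Gsta3 (subunit Yc2), Ugt2b5 is Ugt2b15, Ugt2b34 is Ugt2b10, Ugt2b36 is Ugt2b35 and Sult2al1 is Sult2a6. The array names are kept in the text. No gene carries the name Ugt1a1, Ugt2b17 or Sult1e1 on the array, and RefSeq lists Ugt2b17 as a synonym of both Ugt2b1 and Ugt2b5.

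Of the 45 members, 37 passed the detection filter, which a probe passes when all arrays of 1 or more groups show it well above background. These were 20 GST, 9 UGT and 8 SULT genes. On every one of the 22 arrays, 31 members were well above background, and none was saturated. Gstm3, Gstm5, Gstm6, Gsto2, Sult2a2 and Ugt1a9 were tested although they were not detected on all arrays. The 8 members that did not pass were Gstt4, Sult1d1, Sult2b1, Sult4a1, Sult5a1, Sult6b1, Ugt2a1 and Ugt2b7. Detection among them ran from 1 array for Sult1d1 to 13 arrays for Sult5a1.

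The tissue looked like liver in its markers: all 8 hepatocyte markers were well above background on every array and none of the 4 pancreas markers on the array passed the filter. Between 52.4% and 93.6% of spots were well above background in Cy5. The lowest share was that of CD 3 rat 4, whose array was also the dimmest, with a median signal of 27.1 units over background. CD 3 rat 1 and CD 14 rat 1 had 4.44% and 4.05% of spots marked as non-uniform, against at most 0.063% on the other arrays. The arrays were on 5 slides, each with its own scan date, called A to E here. Only slide B held both 3-month groups (1 CD 3 and 2 BD 3 rats) and only slide C both 14-month groups (2 CD 14 and 6 BD 14 rats). In whole tissue, fewer cells of a type and less RNA per cell cannot be told apart.

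The values below are log2 ratios of a rat's signal to the reference, so 0 is the level of the reference and a step of 1 is a doubling. The reference signal also moved between arrays: the median correlation of 2 arrays was 0.965 in Cy3 and 0.964 in Cy5. On the used probes, log2 Cy3 ran from 10.3 to 13 for Ugt2b1 and from 8.92 to 11.7 for Gstt3. The part of the reference signal in the spread of the ratios was not tested. A ratio sets the same gene in different rats side by side and says nothing of how much of one gene there is next to another. Some members varied much more widely between rats than others, as the map of members by rat shows.

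**Figure D1:**
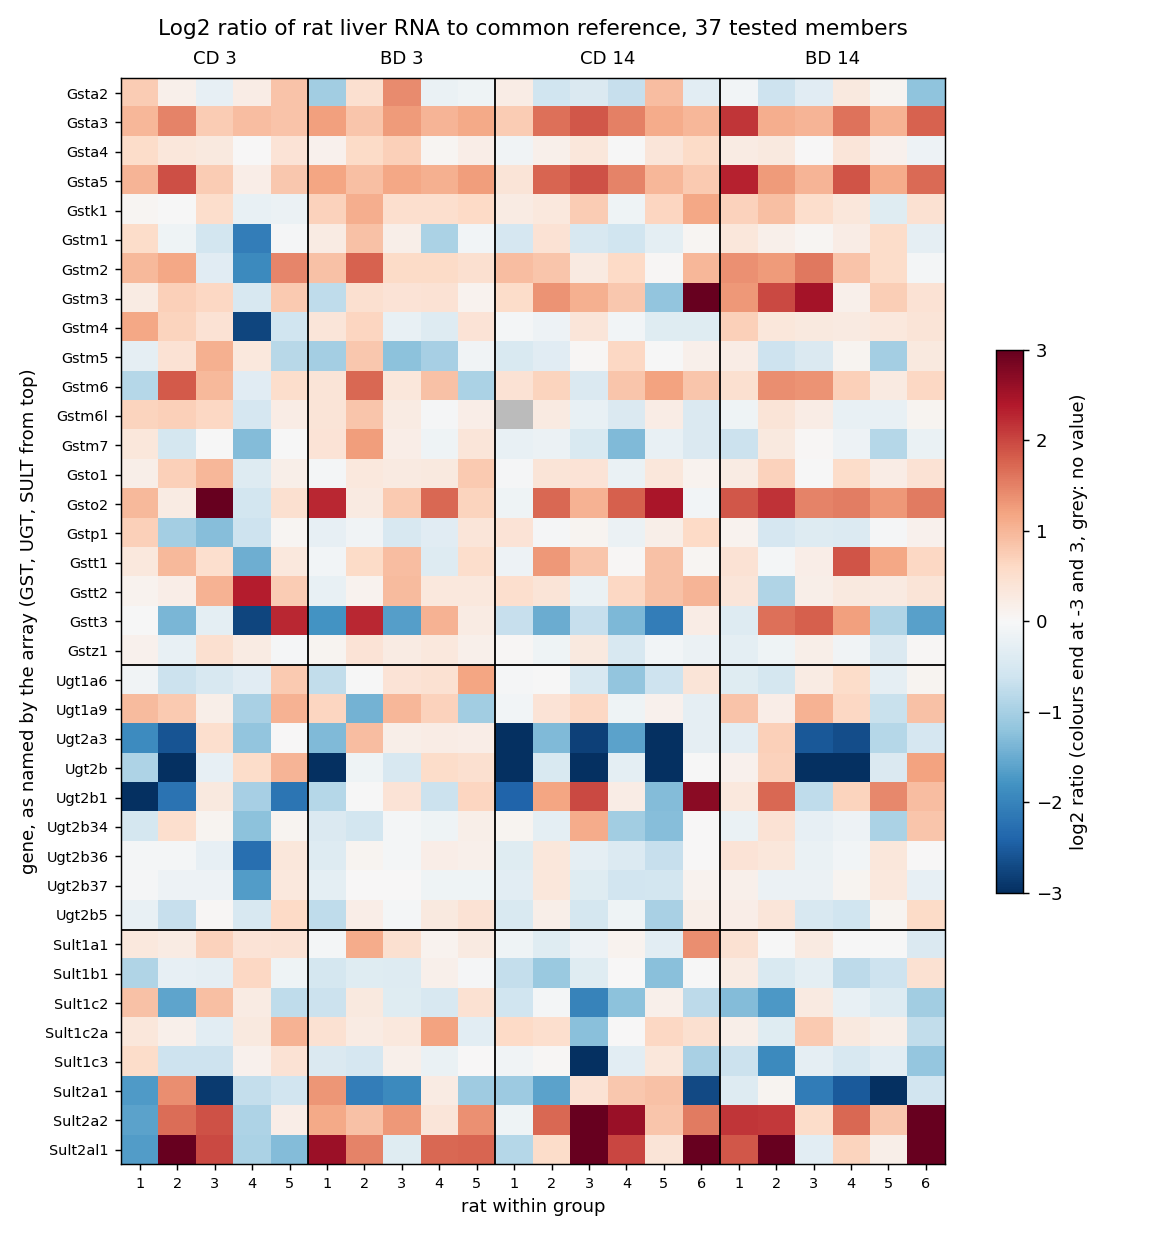
Each cell is the log2 ratio of 1 member (rows, GST at the top, then UGT and SULT) in 1 rat (columns, by group), red above and blue below the common reference, with colours ending at -3 and 3 and grey for no value. Gsta3 and Gsta5 are red in every rat, while Ugt2b is dark blue in 1 or more rats of each group and pale in others.

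Gsta3 and Gsta5, both of the alpha class, stood above the reference throughout. Gsta3 was above the reference in all 22 rats, with means of 1.01 ± 0.28 and 1.31 ± 0.42 on the control diet (CD 3 and CD 14) and 1.10 ± 0.18 and 1.45 ± 0.47 on BASE-diet (BD 3 and BD 14) (SD, n = 5 at 3 and 6 at 14 months). Gsta5 was likewise above it in every rat, with means of 0.94 ± 0.63, 1.22 ± 0.59, 1.11 ± 0.13 and 1.55 ± 0.50 in the same order. Both were lowest on average in CD 3 and highest in BD 14, and the groups overlapped throughout. The second probe of Gsta5, which was dimmer, differed between BD 3 and CD 3 by -0.17 ± 0.53 (SE), against 0.17 ± 0.32 for the used one, which was -0.02 ± 0.32 without CD 3 rat 4. Gsta4, which conjugates 4-hydroxynonenal from lipid peroxidation, lay between -0.15 and 0.71 in all rats. Gstz1, the maleylacetoacetate isomerase of tyrosine breakdown, lay between -0.48 and 0.47, and Gsto1, an omega-class enzyme that also reduces dehydroascorbate, between -0.38 and 0.99. By the SD among rats of a group, these 3 were the narrowest members. Gsta2, another alpha-class transferase, ran from -1.21 to 1.41 and was on average lower at 14 months, by -0.50 ± 0.38 in CD 14 against CD 3 and by -0.42 ± 0.38 in BD 14 against BD 3, the latter -0.09 without BD 3 rat 3.

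In the mu class, Gstm1 and Gstm2, which handle epoxides and other bulky electrophiles, were higher on BASE-diet at both times, with adjusted p-values above the threshold. Gstm1 differed by 0.51 ± 0.37 at 3 months and 0.41 ± 0.34 at 14 months. Gstm2 differed by 0.59 ± 0.48 and 0.33 ± 0.44, the latter 0.20 without BD 14 rat 3 and 0.53 without BD 14 rat 6. Without CD 3 rat 4, the 3-month differences were 0.10 ± 0.30 for Gstm1 and 0.04 ± 0.37 for Gstm2, so they rested on that array. Gstt1, a theta-class enzyme, differed by 0.18 ± 0.42 and 0.22 ± 0.39, and these turned to -0.22 ± 0.37 without the same array and to -0.02 ± 0.38 without BD 14 rat 4. In the SULT1 family, Sult1a1, the phenol sulfotransferase, differed by -0.04 ± 0.28 and -0.04 ± 0.26 between the diets, and Sult1b1, which sulfates thyroid hormones, by -0.05 ± 0.30 and 0.33 ± 0.28. With 1 array left out at a time, Sult1a1 ran from -0.23 to 0.07 at 3 months and from -0.13 to 0.22 at 14 months, and Sult1b1 from -0.23 to 0.16 and from 0.19 to 0.45. Sult1c3 differed by -0.17 ± 0.48 and -0.12 ± 0.43. Its 3-month difference ran from -0.32 without CD 3 rat 2 to -0.02 without CD 3 rat 1. Its 14-month difference ran from -0.60 without CD 14 rat 3 to 0.10 without BD 14 rat 2. Over all 37 tested members, some single array turned the sign of the diet difference in 18 at 3 months and in 14 at 14 months.

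The widest members were UGT2 and SULT2 genes and 1 theta-class GST. The SD among rats of a group was 2.43 for Ugt2b, 1.95 for Sult2al1, 1.49 for Gstt3, 1.45 for Sult2a1, 1.38 for Ugt2b1, 1.28 for Ugt2a3 and 1.13 for Sult2a2. Among all 19434 tested probes, 0.0617% had a larger SD than Ugt2b and 0.16% a larger one than Sult2al1. The median SD of the tested members was 0.63, and that of all tested probes 0.529. At the other end, 94.1% of all tested probes had a larger SD than Gstz1 and 92.8% a larger one than Gsta4. By group, the median SD of the members was 0.775 in CD 3 and 0.555 in CD 14, and on BASE-diet 0.490 at 3 and 0.497 at 14 months. The same median over all tested probes was 0.695, 0.392, 0.358 and 0.387, so CD 3 was the widest group for both.

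**Figure D2:**
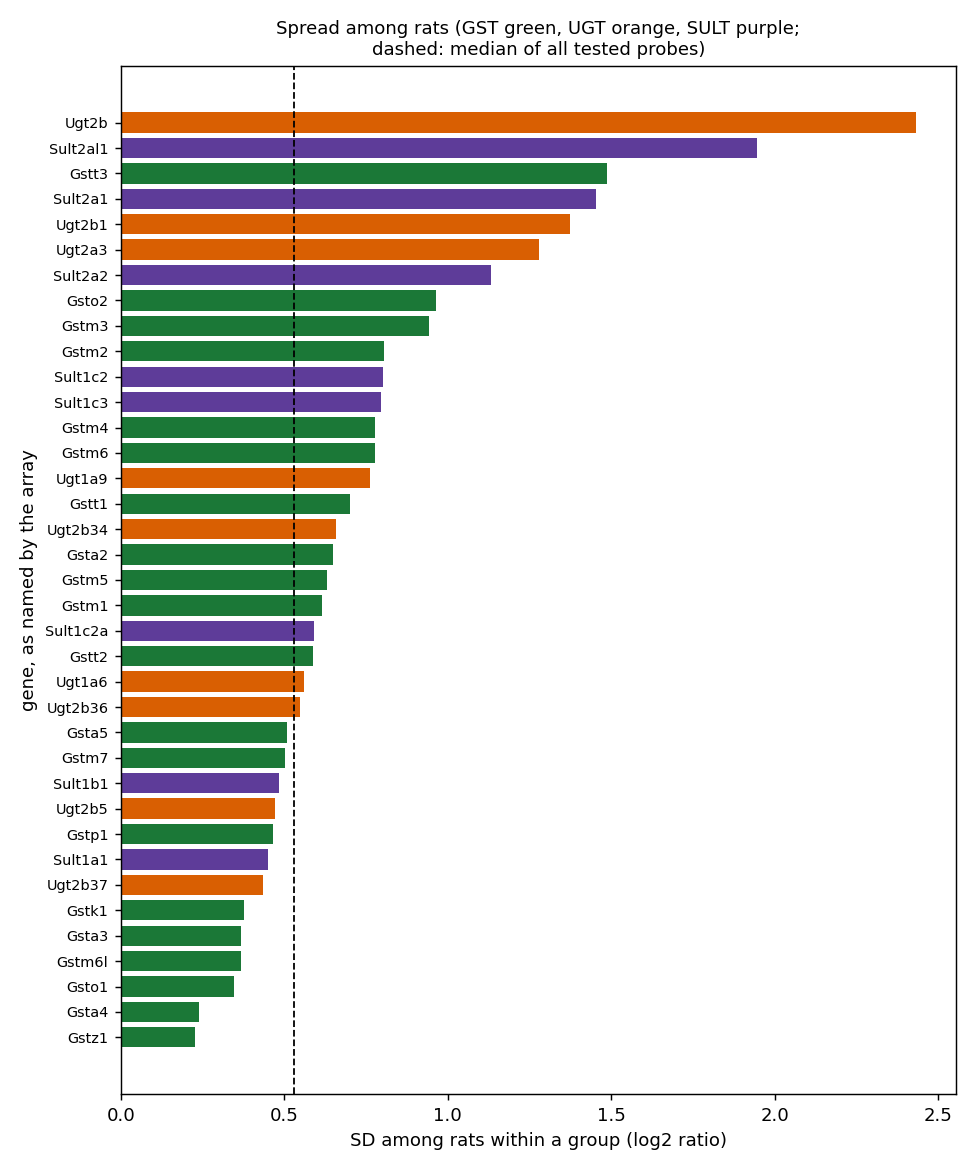
Bars give the SD of each tested member's log2 ratio among rats of the same group (pooled over the 4 groups), coloured by family, and the dashed line marks the median of all tested probes, 0.529. Ugt2b is the widest at 2.43, and the 7 widest bars are all UGT2, SULT2 or Gstt3.

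Ugt2b split the rats. In 7 rats its log2 ratio lay between -5.67 and -3.55, and in the other 15 between -0.94 and 1.20, with no rat in the 2.62 units between. The next widest gaps among the members, 2.15 in Gstm4 and 1.57 in Gstm2, each set off a single array, CD 3 rat 4. The low rats were found in every group. In CD 3 it was rat 2 at -4.50, and in BD 3 rat 1 at -5.46. In CD 14 the low rats were rat 1 at -5.15, rat 3 at -5.67 and rat 5 at -4.66. In BD 14 they were rat 3 at -4.04 and rat 4 at -3.55. They lay on 4 of the 5 slides, and slide E, the remaining one, held only 2 rats.

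The second Ugt2b probe gave the same 7 rats as the lowest. It read -6.12 in CD 3 rat 2, -6.66 in BD 3 rat 1, -2.74, -4.20 and -5.17 in CD 14 rats 1, 3 and 5, and -4.85 and -5.06 in BD 14 rats 3 and 4. In BD 3 rat 1 this probe was not well above background, so that its value there only says that it was low. Every other rat was at -0.78 or above on that probe. The difference lay in the rat's own channel: for the used probe, the log2 Cy5 signal ran from 8.55 to 12.1 in the 7 low rats and from 13.6 to 15.7 in the rest, while the Cy3 signal of the reference stayed between 13.4 and 15.9 on all arrays. The used probe was well above background on all 22 arrays, the low ones included. Alleles, hybridisation of the probes and transcript level were not told apart by these data.

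Ugt2a3, whose probe is also on chromosome 14, was low in nearly the same rats. It read -2.60 in CD 3 rat 2, -1.33 in BD 3 rat 1, -3.13, -2.80 and -4.47 in CD 14 rats 1, 3 and 5, and -2.55 and -2.67 in BD 14 rats 3 and 4. Of the 7 lowest Ugt2a3 arrays, 6 were among these, and the remaining one was CD 3 rat 1 at -1.89. Its other values ran from -1.60 in CD 14 rat 4 up to 0.92 in BD 3 rat 2, with no gap like that of Ugt2b. Since the rats fell into clusters in Ugt2b, no correlation over all of them is given. Ugt2b1, farther along the chromosome, had another order of rats. It was at 1.98 in CD 14 rat 3, where Ugt2b was lowest, and at -3.75 in CD 3 rat 1, where Ugt2b was -0.94.

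**Figure D3:**
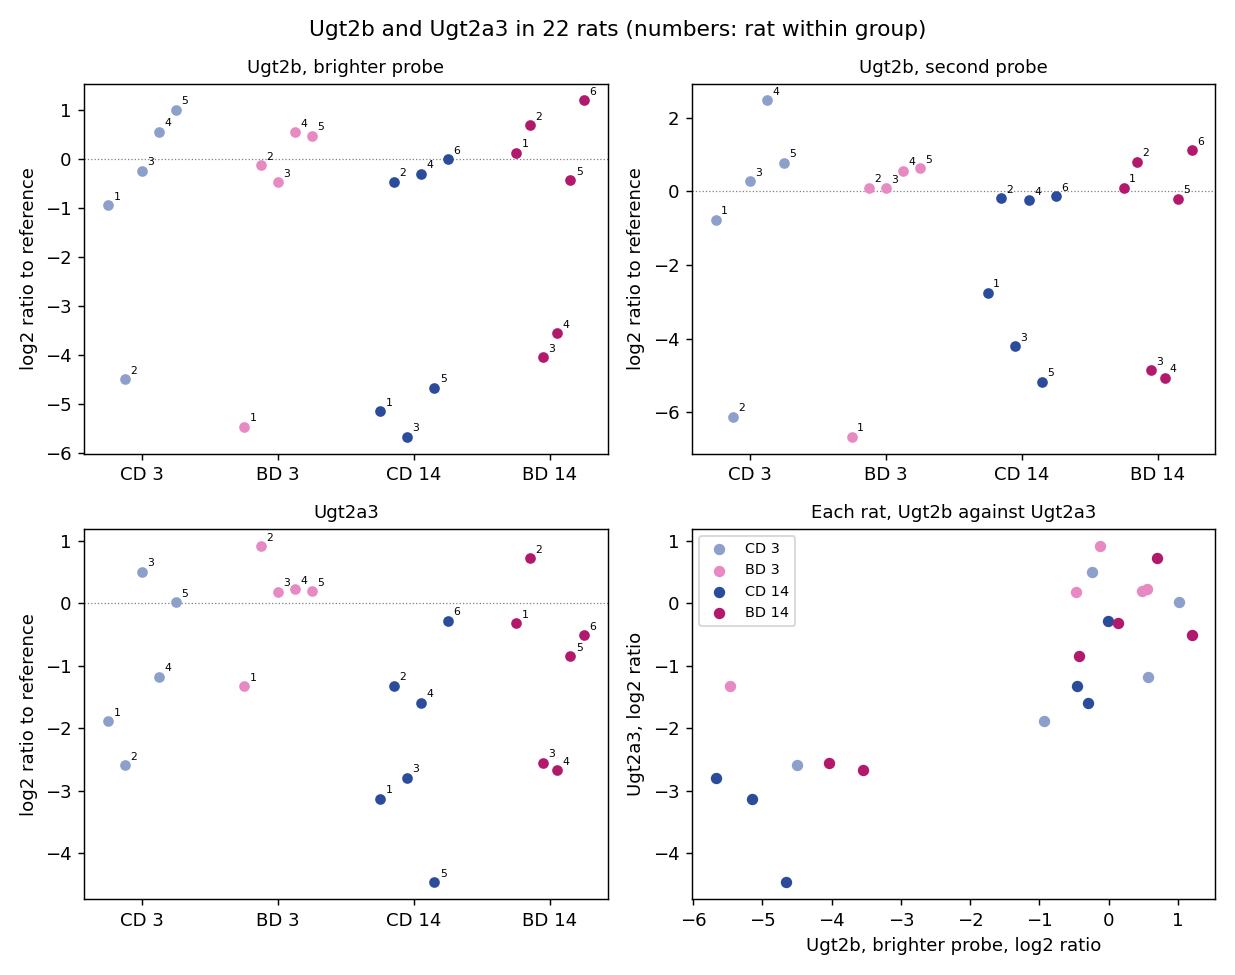
The log2 ratio to the reference is plotted for every rat by group for both Ugt2b probes and for Ugt2a3, with the rat's number beside each point, and the last panel sets Ugt2b against Ugt2a3. The same 7 rats lie at -2.74 or lower on both Ugt2b probes, and all of them are at -1.33 or lower in Ugt2a3.

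Upstream sequence is shown for Ugt2b and Ugt2a3 because they were low in nearly the same rats. The 250 bases before the start of each gene come from RefSeq on GRCr8, a later build than that of the array, and capitals mark a match to TATAAA (in Ugt2b) or to GTTAAT (in Ugt2a3), the former a TATA box and the latter part of the motif of the liver factor HNF1.
Ugt2b, chr14:20985199-20985448, + strand: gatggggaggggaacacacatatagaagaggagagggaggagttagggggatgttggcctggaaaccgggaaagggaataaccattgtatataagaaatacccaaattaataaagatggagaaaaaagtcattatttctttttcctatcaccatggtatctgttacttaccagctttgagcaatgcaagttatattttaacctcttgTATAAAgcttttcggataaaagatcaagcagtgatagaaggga
Ugt2a3, chr14:20851720-20851969, + strand: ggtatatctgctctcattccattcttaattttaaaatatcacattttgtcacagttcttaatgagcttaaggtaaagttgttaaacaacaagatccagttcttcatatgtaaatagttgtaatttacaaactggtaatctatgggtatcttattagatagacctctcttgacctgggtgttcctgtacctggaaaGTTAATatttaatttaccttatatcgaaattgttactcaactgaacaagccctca
Such windows were at hand for 37 of the 45 members, not the same 37 as those tested. On either strand, TATAAA was found in 10 of them (27%) and in 12.9% of all 33469 windows. GTTAAT was found in 5 (13.5%) against 6.45%, and the antioxidant response core TGACNNNGC, known from inducible GST genes, in 5 (13.5%) against 10.1%. The 5 with the last motif were Gsta5, Gstm5, Gstm7, Gstp1 and Gstz1. These are matches of letters and do not show that a factor binds.

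The SULT2 genes, hydroxysteroid sulfotransferases that are known to be more abundant in the liver of female than of male rats, also differed widely between rats. Sult2al1 read -1.67, 3.15, 1.97, -0.95 and -1.31 in the 5 CD 3 rats and 2.57, 1.48, -0.37, 1.73 and 1.75 in the BD 3 rats. In CD 14 it ran from -0.85 through a median of 1.28 to 5.10, and in BD 14 from -0.33 through 1.26 to 4.25. Every group thus held rats below the reference and rats well above it. Sult2a1 ran from -3.15 to 1.39 over all rats and was not ordered like Sult2al1: CD 14 rat 6 had 3.64 in Sult2al1 and -2.71 in Sult2a1. CD 14 rat 3 had the highest Sult2al1 value, 5.10, and the lowest value of Sult1c3 at -3.07.

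The theta-class Gstt3 ran from -2.74 in CD 3 rat 4 to 2.27 in CD 3 rat 5, and from -1.80 to 2.25 within BD 3. Its second probe ran from -2.40 to 2.57 and had its highest value in BD 3 rat 2, and the lowest one, in CD 3 rat 4, was not well above background. Gstt1 and Gstt2 were narrower in most groups. On the dimmest array, CD 3 rat 4, Gstt2 stood at 2.36 and Gstt1 at -1.46. The same rat had the lowest values of Gstm1 (-2.07), Gstm2 (-1.92), Gstm4 (-2.75), Ugt2b36 (-2.25) and Ugt2b37 (-1.68). The part of the array's low signal in these values was not tested, so 3-month differences are also given without it where it moved them by over 1.5 times or turned them.

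The diet comparison at 3 months asks whether conjugation enzymes differ after a short time on BASE-diet. No member passed the threshold of an adjusted p below 0.05 (limma, Benjamini-Hochberg over 19434 probes, lowest adjusted p 0.551), and 0% of all tested probes did. Of the 37 tested members, 25 (67.6%) were higher in BD 3 than in CD 3, with a median difference of 0.17, against 53.6% and 0.03 for all tested probes. Without CD 3 rat 4, 18 of 37 were higher and the median was -0.004, and within slide B 20 were higher and the median was 0.03. By family, the median difference was 0.15 for GST, 0.23 for UGT and 0.02 for SULT, and without CD 3 rat 4 it was -0.11, 0.09 and 0.12. At an unadjusted p below 0.05, 3 members were higher and none was lower, where 4.99% of all tested probes were higher and 2.11% lower. They were Gstk1, Gstm7 and Ugt2b1. With the slide as a block there were also 3, Gstk1 (1.05), Ugt2b1 (3.85) and Sult2al1 (3.95), where 11% of all tested probes had such a p. Slide D held only CD 3 rats, so of that group only rats 1 and 5 bear on the blocked difference. Within slide B, differences included higher values of Sult2a2 (2.60), Ugt2b1 (3.32) and Sult2al1 (3.70) and lower ones of Sult1c3 (-1.02) and Gstp1 (-0.89). The only CD 3 array of that slide was that of CD 3 rat 1, with 4.44% of spots non-uniform. Every value within slide B rests on this array.

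Gstk1, the kappa-class enzyme of mitochondria and peroxisomes, read 0.05, -0.01, 0.52, -0.22 and -0.18 in CD 3 and 0.69, 1.10, 0.51, 0.50 and 0.60 in BD 3. The groups all but separated, with CD 3 rat 3 just above the lowest BD 3 rats. The difference was 0.65 ± 0.25 (SE, adjusted p 0.551, limma), and it was 0.84 within slide B and 0.58 without CD 3 rat 4. At 14 months the difference in Gstk1 was -0.07 ± 0.22 (adjusted p 0.981, limma). It ran from -0.20 without CD 14 rat 4 to 0.08 without BD 14 rat 5. The difference between the 3-month and the 14-month diet effects was -0.72 ± 0.33, with an unadjusted p of 0.042 and an adjusted p of 1.00 (limma interaction), so it did not pass.

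Gstm7, a mu-class transferase, read 0.34, -0.53, -0.02, -1.31 and -0.02 in CD 3 and 0.40, 1.25, 0.19, -0.13 and 0.36 in BD 3. The groups overlapped, and the lowest value was again CD 3 rat 4. The difference was 0.72 ± 0.31 (adjusted p 0.652, limma), 0.47 without that rat and 0.21 from the Cy5 channel alone. Ugt2b1, a UGT2B form, read -3.75, -2.22, 0.28, -1.0 and -2.19 in CD 3 and -0.85, -0.02, 0.42, -0.64 and 0.65 in BD 3. Most CD 3 rats were well below the reference, and CD 3 rat 3 was among the BD 3 values. The difference was 1.69 ± 0.81 (adjusted p 0.693, limma), and 1.20 without the 2 arrays with many non-uniform spots, of which CD 3 rat 1 is one. Within slide B the difference was 3.32, with that same rat as the only one of CD 3.

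The next smallest p-values at 3 months belonged to Gstm5, Gstt2 and Ugt2a3. Gstm5, a dim mu-class gene, differed by -0.65 ± 0.38 and Gstt2 by -0.60 ± 0.36, while Ugt2a3 differed by 1.07 ± 0.75, or by 0.67 without CD 3 rat 2. Gstm5 was -0.98 without BD 3 rat 2 and -0.42 without CD 3 rat 3, and it turned to 0.17 within slide B. Its probe was well above background in 3 of 5 CD 3 and 3 of 5 BD 3 rats. Gstt2 was -0.23 without CD 3 rat 4. The used probe of the array's Ugt1a6 differed by 0.42 ± 0.34 (adjusted p 0.859, limma), by 0.19 without BD 3 rat 5 and by 0.67 without BD 3 rat 1. Its second probe differed by 2.46 ± 0.76, with an unadjusted p of 0.004 and an adjusted p of 0.434 (limma). On that probe CD 3 read -0.63, -1.94, -4.16, -4.93 and 0.28 and BD 3 read -0.79, 0.01, 0.25, 0.54 and 0.90, and the lowest readings were those of CD 3 rats 2, 3 and 4, all of slide D. At 14 months the same probe was also low in CD 14 rats 4 and 5 of slide C (-2.44 and -2.54), while the BD 14 rats of that slide lay between -0.43 and 0.67. The difference there was 0.90 ± 0.70. The Ugt1a genes share their last exons, so a probe there can read several of them, and whether these probes do was not examined here. Values under the array name Ugt1a6, here and below, may thus be those of several Ugt1a genes together. No member had groups that did not overlap in this comparison, as 0.756% of all tested probes did.

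**Figure D4:**
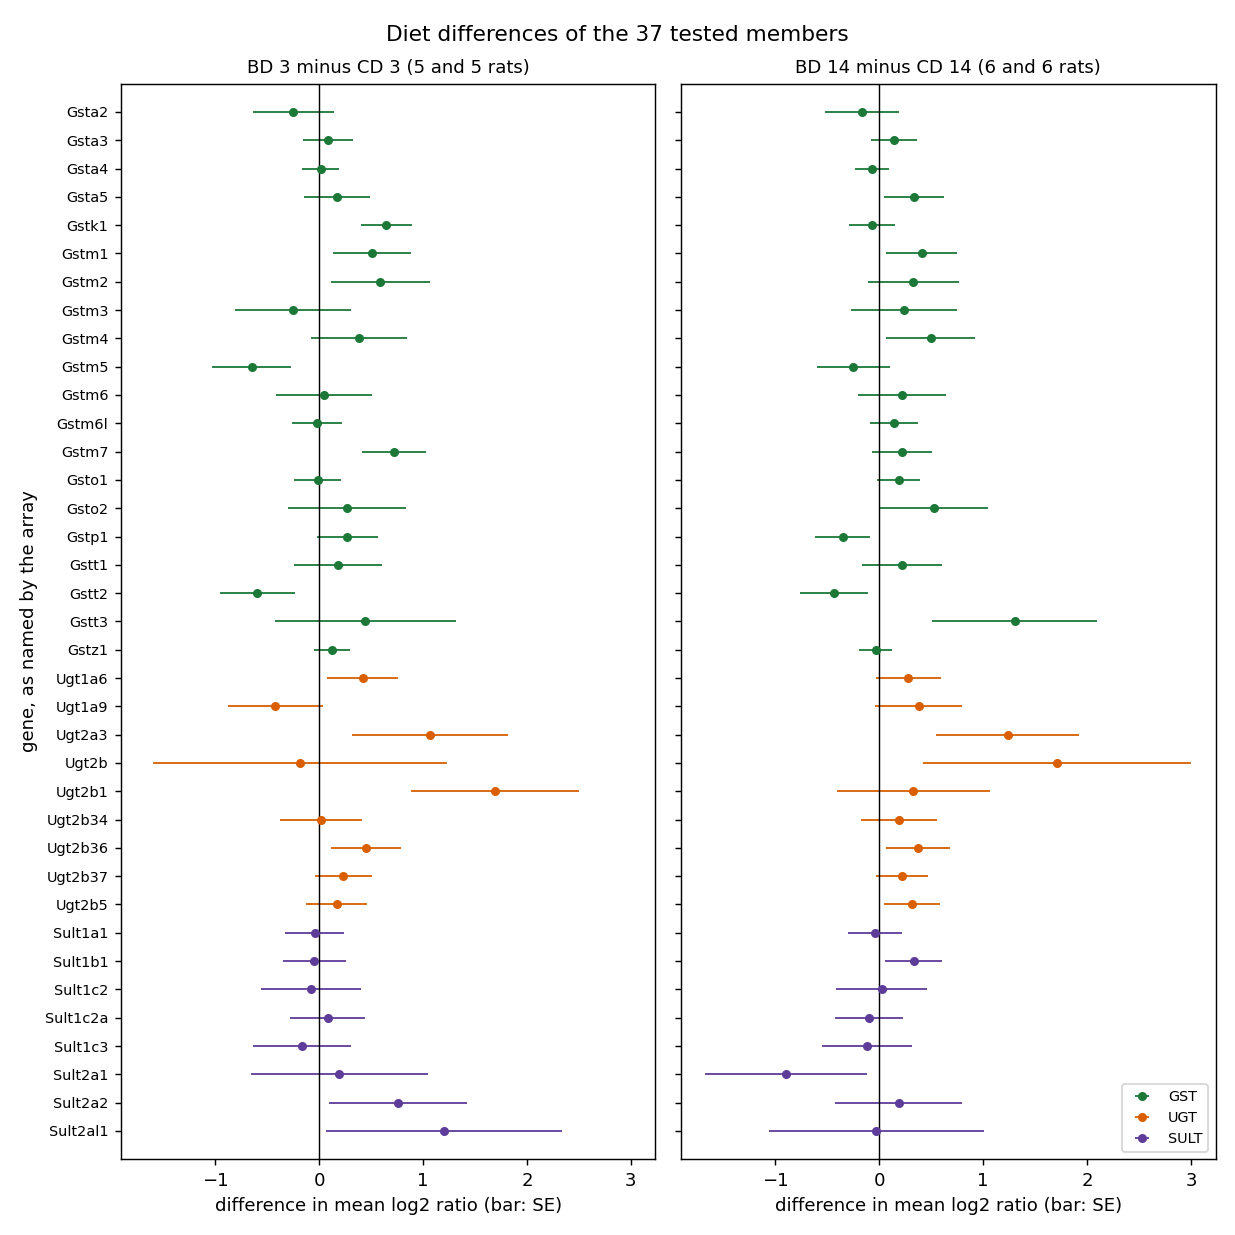
Points give the difference in mean log2 ratio, BASE-diet minus control diet, of each tested member at 3 months (left) and 14 months (right), and bars give the standard error. Most points lie within a unit of 0, the 9 UGT points at 14 months are all to the right of 0, and the widest bars belong to Ugt2b and Sult2al1.

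The same comparison at 14 months asks whether longer feeding sets the enzymes apart. No member passed (lowest adjusted p 0.952, limma), and 0% of all tested probes did. None had an unadjusted p below 0.05 either, where 3.79% of all tested probes were higher in BD 14 and 0.803% lower. With the slide as a block 4 members had one, all higher, Ugt1a6 (0.86), Ugt2b34 (1.11), Gstm3 (1.39) and Ugt2a3 (2.00), where 7.8% of all tested probes did, and none passed. All BD 14 rats were on slide C, so this block set them only against CD 14 rats 4 and 5 of that slide. Its differences are those within slide C and no separate check. Again 25 of 37 members (67.6%) were higher on BASE-diet, with a median difference of 0.21, against 56.3% and 0.05 for all tested probes. The 9 UGT members were all higher, with a median of 0.33, the GST members had a median of 0.20 with 13 of 20 higher, and the SULT members one of -0.03 with 3 of 8 higher. The UGT count was 7 of 9 from the Cy5 channel alone and 8 without the 2 arrays with many non-uniform spots, and it fell to 7 without CD 14 rat 5. All 9 were higher within slide C, against the same CD 14 rats 4 and 5.

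The 6 members with the smallest p-values were Ugt2a3, Gstt3, Gstt2, Gstp1, Ugt2b and Ugt2b36. Ugt2a3 ran from -4.47 through a median of -2.20 to -0.28 in CD 14 and from -2.67 through -0.68 to 0.72 in BD 14. Only BD 14 rat 2 lay above the CD 14 range, and the other 5 BD 14 rats lay inside it. The difference was 1.23 ± 0.69 (adjusted p 0.952, limma), and 0.79 without CD 14 rat 5. Ugt2b differed by 1.71 ± 1.29, and by 1.12 without CD 14 rat 3, with 3 of 6 low rats in CD 14 and 2 of 6 in BD 14. Its second probe gave 0.76 ± 1.52.

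Gstt3 ran from -2.07 through -1.02 to 0.23 in CD 14 and from -1.62 through 0.42 to 1.80 in BD 14. In BD 14, 3 rats lay above 1 and 3 below 0. The difference was 1.30 ± 0.79 (adjusted p 0.952), and its second probe gave 1.74 ± 0.77 (unadjusted p 0.035, adjusted p 0.952, limma). Gstt2 differed by -0.44 ± 0.33, and by -0.24 without BD 14 rat 2. Gstp1, the pi-class enzyme that marks preneoplastic foci in rat liver, differed by -0.35 ± 0.27, and by -0.17 with the slide as a block. Ugt2b36 differed by 0.37 ± 0.31. No member had groups that did not overlap, as 0.767% of all tested probes did.

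All BD 14 rats and 2 of the 6 CD 14 rats were on slide C. Within slide C, 7 members had an unadjusted p below 0.05, as did 11.3% of all tested probes. Higher in BD 14 were Gstm1 by 0.62, Gstm4 by 0.61, Ugt1a6 by 0.86, Ugt2b34 by 1.11, Ugt2b36 by 0.69 and Ugt2b37 by 0.55, and Sult2a1 was lower by -2.29. The lowest adjusted p was 0.324 (limma). The second probe of Ugt2b37 had the opposite sign to the used one over all rats, -0.41 ± 0.40 against 0.22 ± 0.25.

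The comparisons over time ask how the enzymes differ between the 3- and 14-month rats of each diet. They share samples with the diet comparisons, so each is given by its own values. In CD 14 against CD 3 no member passed (lowest adjusted p 0.331, limma), as 0% of all tested probes did. At an unadjusted p below 0.05, 3 members were higher and none was lower, where 6.85% of all tested probes were higher and 3.29% lower. With the slide as a block, 3 members were higher at that threshold (Ugt2b1 by 4.19, Gstk1 by 1.05 and Sult2al1 by 4.62) and 2 were lower (Sult1c3 by -1.71 and Gsta2 by -1.42), where 6.01% of all tested probes had such a p in either direction, and none of these members passed. Only slide E held rats of both groups, and slide D held only CD 3 rats 2, 3 and 4, which therefore do not bear on the blocked difference. The rest of it runs through the BD 3 rats. Ugt2b1 ran from -2.41 through 0.70 to 2.70 in CD 14, against the CD 3 values given above, of which 4 of 5 were at -1.0 or lower. The difference was 2.17 ± 0.77 (adjusted p 0.331). It was 4.89 between the single rats of slide E, which have no test. Both 14-month groups overlapped the 3-month groups.

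Gstp1 read 0.72, -1.02, -1.29, -0.61 and 0.05 in CD 3 and ran from -0.18 through 0.13 to 0.60 in CD 14. Its CD 3 rats were spread on both sides of the CD 14 range. The difference of 0.60 ± 0.28 (adjusted p 0.475, limma) was 0.01 with the slide as a block and 0.39 without CD 3 rat 3. Sult2a2 read -1.59, 1.68, 1.92, -0.94 and 0.19 in CD 3 and ran from -0.14 through 1.64 to 3.19 in CD 14. The difference was 1.37 ± 0.64 (adjusted p 0.477, limma), and it ran from 0.08 from the Cy5 channel alone to 2.24 with the slide as a block, and was 0.91 without CD 3 rat 1. Sult2a2 was dim and was detected on 21 arrays. Gstk1 (0.47 ± 0.23), Gstm6l (-0.46 ± 0.24, with no value in CD 14 rat 1) and Ugt2a3 (-1.24 ± 0.72, or -0.80 without CD 14 rat 5) followed in order of p. Over all members the median difference was -0.10 and 17 of 37 were higher, against 0.03 and 53.4% for all tested probes. The 5 tested SULT1 genes, which sulfate phenols, were all lower in CD 14, with a median of -0.39, and none had an unadjusted p below 0.05 on its used probe. Without CD 14 rat 3, Sult1c2a turned to 0.14 and Sult1c3 moved from -0.65 to -0.17. The 3 tested SULT2 genes were all higher, with a median of 1.37, but Sult2a1 (0.34) turned to -0.15 without CD 3 rat 3. The second probe of Sult1c2a differed by -0.73 ± 0.31 (unadjusted p 0.030, adjusted p 0.428, limma), where the used one gave -0.15 ± 0.34. No member had groups that did not overlap, as 0.515% of all tested probes did.

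Markers of other cell types did not pass the adjusted threshold either. Of the Kupffer cell markers, all 6 were higher in CD 14 than in CD 3, 4 of them with an unadjusted p below 0.05, and their mean log2 ratio per rat ran from -2.95 to -0.77 in CD 3 and from -1.37 to -0.19 in CD 14. In BD 3 against CD 3 all 6 were higher too, with a median of 0.68 and none with an unadjusted p below 0.05. In BD 14 against CD 14 only 1 of the 6 was higher, with a median of -0.15. Endothelial markers were higher on BASE-diet in 4 of 4 cases at 3 months and 0 of 4 at 14 months, with medians of 0.22 and -0.36. For lymphocyte markers it was 3 and 1 of 4, with medians of 0.26 and -0.17, and for stellate cell markers 5 of 6 at both times. In CD 14 against CD 3, 4 of 6 stellate cell markers, 3 of 4 endothelial and 4 of 4 lymphocyte markers tested were higher, with medians of 0.26, 0.42 and 0.51. In each of these lists 1 marker had an unadjusted p below 0.05 (Reln 0.94, Lyve1 1.53 and Ptprc 1.34), and Reln was higher in BD 3 than in CD 3 by 1.16. All 4 red cell markers were lower on BASE-diet at both times, with medians of -0.61 and -0.42, and at 3 months Hbb was lower by -1.19 ± 0.46 (unadjusted p 0.018, adjusted p 0.586, limma). The mean log2 ratio of the red cell markers ran per rat from -2.07 to -0.24 in CD 3 and from -2.73 to -0.48 in BD 3. Bile duct and hepatocyte markers were higher in CD 14 than in CD 3 in 3 of 4 and 7 of 8 cases, with medians of 0.51 and 0.26. Of these, only the hepatocyte marker Fgb had an unadjusted p below 0.05 (0.78 ± 0.36, adjusted p 0.473, limma). In BD 14 against BD 3, all tested Kupffer, bile duct, lymphocyte and red cell markers were higher, with medians of 0.28, 0.66, 0.54 and 0.71 and none with an unadjusted p below 0.05. The part of these cells in the members' differences was not tested.

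In BD 14 against BD 3, no member passed (lowest adjusted p 0.633, limma), as 0% of all tested probes did. At an unadjusted p below 0.05, none was higher and 2 were lower, where 4.76% of all tested probes were higher and 2.68% lower. The count was 0 without BD 3 rat 2 and 6 from the Cy5 channel alone, settings for which the share of all tested probes was not computed. Gstm7 ran from -0.86 through -0.17 to 0.29 in BD 14, and the BD 3 values given above lay mostly above 0. The difference was -0.67 ± 0.30 (adjusted p 0.633, limma), and 0.02 with the slide as a block. Gstz1 read 0.08, 0.42, 0.24, 0.31 and 0.15 in BD 3 and ran from -0.43 through -0.12 to 0.19 in BD 14. All BD 3 rats were above the reference and 4 of the 6 BD 14 rats below it, although the groups overlapped. The difference was small, -0.36 ± 0.16 (adjusted p 0.643, limma), and -0.03 with the slide as a block. No slide held rats of both groups, so the slide block compares them only through the other groups. It gave 2 members that were higher at an unadjusted p below 0.05, Gstm3 by 2.39 and Ugt2b34 by 1.35, and none that was lower, where 4.64% of all tested probes had such a p.

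Gstm3, Gsta3, Ugt2a3 and Gsta5 followed in order of p. They differed between BD 14 and BD 3 by 1.06 ± 0.54, 0.35 ± 0.23, -1.07 ± 0.72 and 0.44 ± 0.30. Without BD 14 rat 1, Gsta3 differed by 0.21 and Gsta5 by 0.29. The median over all members was 0.04 with 21 of 37 higher, against 0.07 and 58.6% for all tested probes. The 5 SULT1 genes were all lower, with a median of -0.33, and 2 of the 3 SULT2 genes were higher, with a median of 0.34. Of these, Sult1b1 differed by only -0.009 ± 0.29 and turned to 0.10 without BD 14 rat 4. Sult2al1 (0.34) turned to -0.15 without BD 14 rat 6. Over all 37 tested members, some single array turned the sign of the difference in 12 here and in 18 in CD 14 against CD 3. No member had groups that did not overlap, as 2.26% of all tested probes did.

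**Figure D5:**
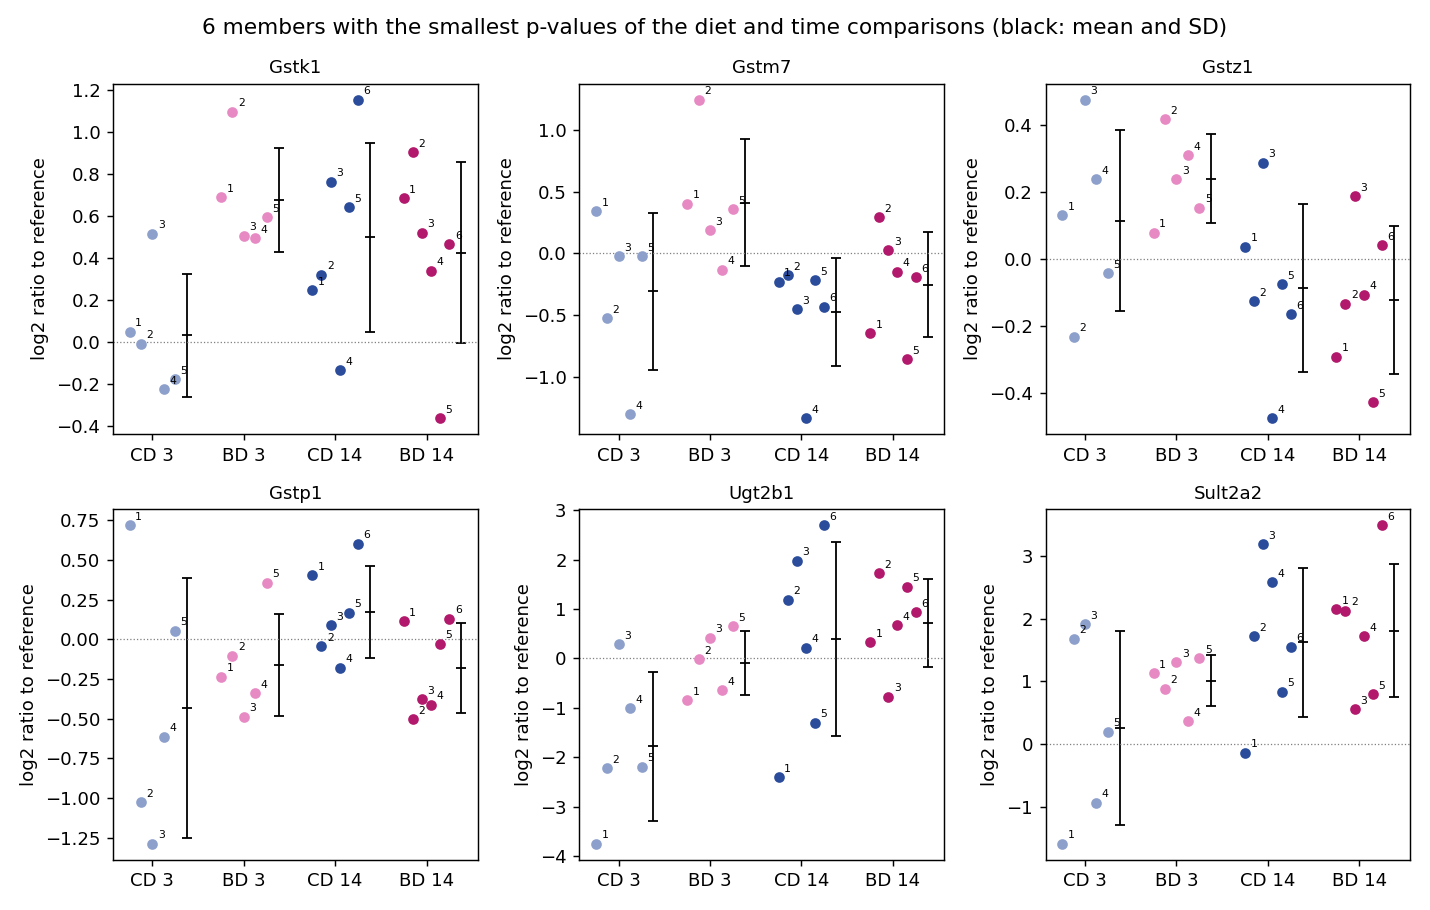
The log2 ratio of each rat is plotted by group for the 6 members with an unadjusted p below 0.05 in a diet or time comparison, with the rat's number beside each point and the mean and SD in black. In Gstk1 all BD 3 rats lie at 0.50 or above and 4 of 5 CD 3 rats at 0.05 or below, and in Ugt2b1 the CD 3 rats reach down to -3.75.

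Diet and time together set BD 14 against CD 3. No member passed (lowest adjusted p 0.116, limma), while 0.314% of all tested probes did. At an unadjusted p below 0.05, 3 of 37 members were found where 17.1% of all tested probes were. Ugt2b1 and Sult2a2 were higher, by 2.50 and 1.56, and Gstt2 was lower, by -0.79. Without CD 3 rat 4, Gstt2 differed by -0.42 and 2 members had such a p. The count ran from 1 with array weights to 6 with the slide as a block, although no slide held rats of both groups. The share of all tested probes was not computed for these settings. From the Cy5 channel alone, 3 of 37 members passed in this comparison, where 3.25% of all tested probes did. They were Gstz1 (-0.65 ± 0.14, adjusted p 0.019), Gsta5 (0.72 ± 0.18, adjusted p 0.032) and Ugt2b1 (2.44 ± 0.63, adjusted p 0.038), by limma. In the interaction of diet and time, no member passed, nor did any probe (0%), and Gstk1 alone had an unadjusted p below 0.05, as 4.8% of all tested probes did. In the F test over the 4 groups, no member passed (lowest adjusted p 0.378, limma) and 0.0257% of all tested probes did. Ugt2b1, Ugt2a3 and Gstm7 had an unadjusted p below 0.05 in it, as 10.5% of all tested probes did.

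The median standard error of the members' differences was 0.38 in BD 3 against CD 3 and 0.35 in BD 14 against CD 14, and differences well above 1 standard error, such as that of Gstk1 at 3 months, did not pass either. A p above the threshold does not show that the groups were alike.

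All 12 listed genes for making or transporting the co-substrates were tested, and none passed. In BD 3 against CD 3, Ugp2, which makes UDP-glucose, was lower by -0.69 ± 0.29 (unadjusted p 0.025, adjusted p 0.622, limma), and Papss1, which makes PAPS for the SULTs, was higher by 0.55 ± 0.26 (unadjusted p 0.048, adjusted p 0.697, limma). At 14 months the same genes differed by -0.37 ± 0.26 and -0.23 ± 0.24. The median of the list was 0.01 at 3 months and 0.06 at 14 months, with 6 and 8 of 12 higher.

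Of 13 other conjugating enzymes listed, 12 were tested and none passed. As3mt, the arsenic methyltransferase, was higher in BD 14 than in CD 14 by 0.57 ± 0.19 (unadjusted p 0.007, adjusted p 0.914, limma), while 3 of the 12 tested genes were higher in all. None had an unadjusted p below 0.05 in BD 3 against CD 3. Over time, Inmt, the indolethylamine N-methyltransferase, was lower by -2.57 ± 0.65 in CD 14 against CD 3 and by -2.70 ± 0.65 in BD 14 against BD 3 (adjusted p 0.183 and 0.241, limma). The other genes of this list with an unadjusted p below 0.05 over time were As3mt, lower by -0.49 in CD 14 against CD 3, and Mgst3 and Glyat, lower by -0.57 and -0.42 in BD 14 against BD 3. These time values were named after they were seen. Among 6 enzymes that hydrolyse conjugates or epoxides, none had an unadjusted p below 0.05 in a diet comparison. Over time Sts, the steroid sulfatase, was lower by -0.60 in CD 14 against CD 3 and by -0.62 in BD 14 against BD 3. Of the co-substrate genes, Ugp2 and Slc26a1 were lower in CD 14 than in CD 3 by -0.62 and -0.41. All these time values had an unadjusted p below 0.05, and none passed.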

How the data were processed

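Liver RNA of 22 rats was measured on 2-colour Agilent rat arrays. The deposited scanner files hold, per spot, the log10 ratio of Cy5 over Cy3 and the processed intensity of each dye, which the authors made with Agilent Feature Extraction (10.7.3.1 in the notes, 10.10.1.1 in the file headers), with background subtraction and dye normalization. The deposited log10 ratio was turned to a log2 ratio. Control spots and spots marked non-uniform were left out, and spots of a probe were averaged. A probe was tested where 0.5 or more of its spots exceeded background clearly in the Cy5 channel (the scanner software's own mark) throughout 1 or more groups, and 19434 of 30367 probes did. Of these, 698 lacked a value on some array and were fitted on the rest. The 4 group means were fitted with limma 3.58.1 (R 4.3.3, data.table, version 1.17.8), with Benjamini-Hochberg adjustment over all tested probes and a threshold of 0.05. The fit was tested on simulated data. Figures were drawn with matplotlib 3.10.9.

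A gene with several probes was read by the brightest in Cy5. Every member was counted. Values are given for members passing the threshold, for the 6 with the smallest p in each diet or time comparison, for a fixed choice of others, and for listed co-substrate and other conjugation genes with an unadjusted p below 0.05 in a diet comparison. Ugt2b, Sult2al1, Gstt3 and second probes were described further after their values were seen. The members and lists were chosen with earlier results of these data known. Nothing in the sources used here ties rats with the same number together, and the correlation of their deviations from group means ran from -0.263 to 0.286, so the rats were not paired. Alternatives covered the background correction, channel, centring, detection filter, spot flags, array weights, slide, rat number, test and single arrays. Leaving out the 2 arrays with many non-uniform spots was added after seeing the data. Intensities carry no counts, so precision rests on the number of arrays and on how far a spot lies above background.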

Additional observations from a re-analysis of the deposited data

Results flagged for a closer look

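In 9 of 148 groups of values examined, 1 rat stood apart from the rest of its group, which is 6.08%, where chance gives about 5%. Of these, 3 were CD 3 rat 4, the dimmest array: Gstt1 at -1.46 with the other rats between 0.31 and 0.98, Ugt2b36 at -2.25 with the others between -0.26 and 0.35, and Ugt2b37 at -1.68 with the others between -0.16 and 0.33. Ugt2b stood at -5.46 in BD 3 rat 1, with the others between -0.48 and 0.55. Gstm4 stood at 0.713 in BD 14 rat 1, above the others at 0.26 to 0.38. Gstm7 stood at -1.33 in CD 14 rat 4, below the others at -0.45 to -0.18. Gstt2 stood at -0.902 in BD 14 rat 2, below the others at 0.17 to 0.39. Sult1a1 stood at 1.41 in CD 14 rat 6, above the others at -0.37 to 0.10. Sult1c2a stood at -1.26 in CD 14 rat 3, below the others, of which the highest was 0.62.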

How the results depend on the processing

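No member passed the threshold in any of the 7 tests under any alternative run, with the exception of BD 14 against CD 3 from the Cy5 channel alone, where 3 of 37 members and 3.25% of all tested probes passed. The median difference of the members in BD 14 against CD 14 was 0.0816 from the Cy5 channel alone, against 0.21. With the slide as a block, Gstm5 and Gstt2 turned to 0.273 and 0.106 in BD 3 against CD 3, and Gstm7 turned to 0.0201 in BD 14 against BD 3. Within slide B, Gstm5 was 0.172. From the Cy5 channel alone, Gstm5 was -0.38 at 3 months, Gstt3, Gstp1 and Ugt2b36 were 0.79, -0.55 and 0.17 in BD 14 against CD 14, Gstm6l was -0.29 in CD 14 against CD 3, and Gstm3 and Ugt2a3 were 0.59 and -0.40 in BD 14 against BD 3. The causes were not tested. With 1 array left out at a time, the median ran from -0.0038 (without CD 3 rat 4) to 0.226 in BD 3 against CD 3, from 0.122 to 0.295 in BD 14 against CD 14, from -0.186 to 0.0583 in CD 14 against CD 3, and from -0.0798 to 0.102 in BD 14 against BD 3. The number of members passing stayed at 0 in each test. With the rat number as a replicate block, the medians were 0.168, 0.214, -0.111 and -0.0890 in the same order and 0 members passed. The methods' ANOVA with Tukey's test also gave 0. The UGT members higher at 3 months fell from 7 of 9 to 3 with the slide as a block and to 4 with array weights. Slide B held 1 CD 3 array, which was assumed to vary like the BD 3 arrays. The arrays give no depth, and dim members such as Gstm5 and Sult2a2 rest on signals near background on some arrays.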
